A study of Mus musculus with 2 samples.

Results

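The solute carriers and ABC exporters described here are the 104 genes, of 19347 in the authors' table of annotated cells, whose symbols begin with Slc6a, Slc7a, Slc13a, Slc16a, Slc22a, Slc47a, Slco, Abcb, Abcc or Abcg. Their transcripts were counted in single cells prepared from the dura, the tough outer layer of the meninges, with the droplet method of 10x Genomics, in mice at postnatal day 14 (2 weeks old). There was 1 library from IL-33-deficient mice (KO, Il33 H2B-mCherry on both alleles) and 1 from heterozygous mice (het, Il33 H2B-mCherry on 1 allele), so the control also carries the reporter allele. Each library was made from pooled animals, 5 to 8 per genotype and sex per the labels, and sorted lymphocytes, sorted stromal cells and all viable cells were mixed in parts of 1 to 1 to 2. The study asks what IL-33, a cytokine released by stromal and barrier cells, does in this tissue. With 1 library per genotype no test was possible, and genotype cannot be told apart from the animals, the sort and the preparation of each library.

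Solute carriers move small molecules across membranes along or against gradients of ions or of the substrate itself, and ABC exporters use ATP to pump lipids, conjugates and drugs out of cells. In the meninges, arachnoid barrier cells are joined by tight junctions and separate the dura from the cerebrospinal fluid, and their transporters are known to clear organic anions, drugs and transmitters from that fluid. Endothelial cells of the brain form the blood-brain barrier with a similar set, whereas vessels of the dura are largely fenestrated and carry Plvap, a protein of the diaphragms of fenestrae. Dural fibroblasts fill the connective tissue between these barriers.

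The promoters of 4 members are shown, since their transcripts were concentrated in parts of the arachnoid barrier-like or the endothelial cluster, as described below: Slc6a13 (a transporter of gamma-aminobutyric acid, GABA, and taurine), the neighbouring organic anion transporter genes Slc22a6 and Slc22a8, and Slco1c1 (a carrier of thyroxine). Each window is 300 bases of RefSeq sequence (GRCm38.p6), 250 before the annotated start and 50 after it, 5′ to 3′. RefSeq windows were found for 74 of the 104 members. Capitals mark matches, on either strand, to 10 short motifs.
Slc6a13, chr6:121300038-121300337, plus strand: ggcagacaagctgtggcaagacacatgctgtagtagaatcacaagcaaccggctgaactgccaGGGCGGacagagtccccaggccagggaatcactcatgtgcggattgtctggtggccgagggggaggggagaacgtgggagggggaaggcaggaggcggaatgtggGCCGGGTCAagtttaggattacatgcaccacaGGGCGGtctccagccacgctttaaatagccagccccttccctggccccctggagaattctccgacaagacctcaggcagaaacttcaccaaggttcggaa
Slc22a6, chr19:8617746-8618045, plus strand: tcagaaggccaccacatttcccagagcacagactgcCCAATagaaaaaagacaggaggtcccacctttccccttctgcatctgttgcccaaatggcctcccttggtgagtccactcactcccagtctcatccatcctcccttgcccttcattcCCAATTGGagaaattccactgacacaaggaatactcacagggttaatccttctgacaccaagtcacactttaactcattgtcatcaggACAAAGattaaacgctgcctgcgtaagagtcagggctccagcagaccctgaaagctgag
Slc22a8, chr19:8592932-8593231, plus strand: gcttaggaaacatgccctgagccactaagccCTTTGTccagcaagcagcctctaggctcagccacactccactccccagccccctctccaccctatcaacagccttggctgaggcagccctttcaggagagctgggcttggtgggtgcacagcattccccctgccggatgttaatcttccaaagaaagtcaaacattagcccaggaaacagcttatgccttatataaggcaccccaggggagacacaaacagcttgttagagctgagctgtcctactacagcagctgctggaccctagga
Slco1c1, chr6:141524104-141524403, plus strand: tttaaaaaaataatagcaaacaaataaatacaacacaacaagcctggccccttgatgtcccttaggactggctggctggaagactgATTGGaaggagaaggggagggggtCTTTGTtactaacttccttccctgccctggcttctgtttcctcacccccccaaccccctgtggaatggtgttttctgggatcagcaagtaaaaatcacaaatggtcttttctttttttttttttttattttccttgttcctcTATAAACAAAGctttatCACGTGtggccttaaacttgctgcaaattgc
Of all 32851 promoter windows, 35.7% hold the GC box GGGCGG, 37.4% the CCAAT box CCAAT, 13.6% the TATA box TATAAA, 13.4% the forkhead core TAAACA, 18.7% the SOX core ACAAAG and 7.15% the E-box CACGTG. The shares were 14.9% for the ETS core CCGGAA, 7.81% for the AP-1 motif TGANTCA, 1.79% for the CRE TGACGTCA and 12.4% for the NRF2 core TGACNNNGC. The Slc6a13 window holds 2 GC boxes and 1 NRF2 core. The Slc22a6 window holds 3 CCAAT boxes, a pair of which overlap on opposite strands, and 1 SOX core. The Slc22a8 window holds 1 SOX core and no other of the 10 motifs. The Slco1c1 window holds a TATA box, a forkhead core and a SOX core that overlap each other just after the annotated start, a second SOX core, 1 CCAAT box and 1 E-box. These matches describe letters in the windows and are not measured binding sites.

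The KO library held 12046 barcodes and 122426614 transcript counts (unique molecular identifiers, UMIs), and the het library held 10936 and 113220628. The authors kept 6594 KO and 5950 het cells, at medians of 12204.5 and 12746.5 UMIs, in 22 clusters. There were 36 barcode sequences in both matrices, 14 of them among annotated cells. Il33 itself stood at 24.5 CPM in KO and 110 in het cells of cluster 0 (CPM, counts per 1000000, are a gene's UMIs in all cells of 1 cluster and library relative to all UMIs of those cells), a KO/het ratio of 0.224 (0.203 to 0.246). Ranges after values are exact 95% intervals that cover counting error only. Cluster 5 (372 KO and 295 het cells) was called arachnoid barrier-like from 6 of 10 markers, among them Cldn11 and Ptgds, which encodes prostaglandin D synthase. Only 20.97% of its KO cells and 16.3% of its het cells had a UMI of Cdh1, the E-cadherin gene that defines the barrier layer. Krt8, another barrier marker, stood at 0.940 CPM in KO and 5.83 in het, and the fibroblast gene Pdgfra at 140 and 153, so cluster 5 also holds cells that are not shown to be barrier cells. Cluster 0 (1155 KO and 984 het cells) was dural fibroblast-like from 6 of 7 markers. Cluster 8 (226 KO and 261 het cells) was blood endothelial-like from 9 of 9 markers.

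Many members had their highest level in the arachnoid barrier-like cluster. Of 79 members with at least 100 UMIs, 14 (17.7%) were highest in cluster 5, against 2.77% of all 15221 genes with as many UMIs. Cluster 8 held the highest level of 10 members (12.7%, against 6.79% of all genes), and of 61 members with at least 500 UMIs 9 were highest in cluster 5 (14.8%, against 2.57% of 12465 genes) and 10 in cluster 8 (16.4%, against 6.92%). Cluster 0 held that of 5 (6.33%, against 3.2%). A further 9 were highest in cluster 21 (led by Pde6g, Tph1 and Sag), close to the 10.7% of all genes there, and 8 in cluster 15 (10.1%, against 6.43%). The cluster of highest level was the same in both libraries for 62 of 79 members (78.5%, against 69.2% of all genes). Summed over all 104 members, the level was 2723 CPM in KO and 2542 in het cells of cluster 5, 2225 and 2382 in cluster 8, and 2081 and 1946 in cluster 0. B cell-like cluster 2, which had the lowest summed het level, held 399 CPM in KO and 373 in het. Members that help define a cluster were part of the data from which the authors drew the clusters, so these levels describe the clusters and are not a test.

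**Figure D1:**
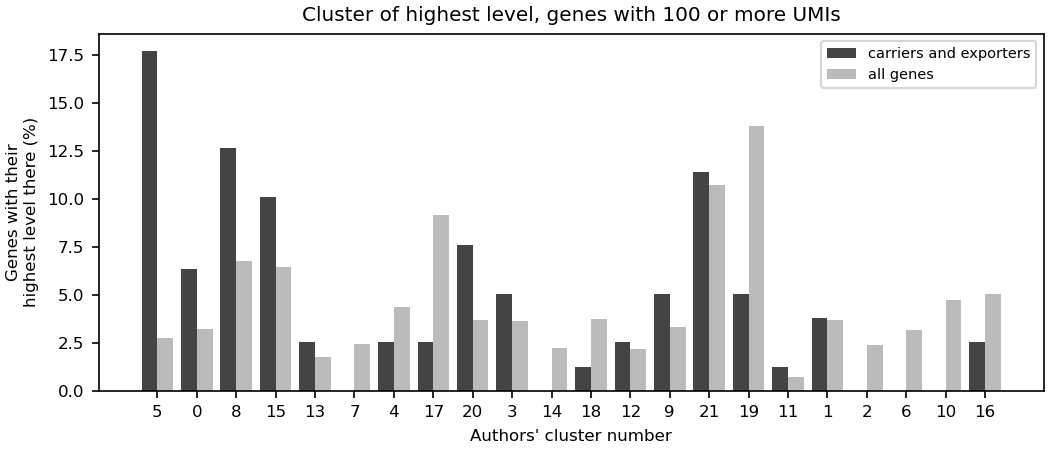
Share of genes (%, y axis) whose mean CPM of both libraries is highest in each of the 22 clusters (x axis), for the 79 carriers and exporters (dark bars) and for all 15221 genes with at least 100 UMIs (light bars). Dark bars stand above light bars in clusters 5 (17.7% against 2.77%), 8 and 0, among others.

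**Figure D2:**
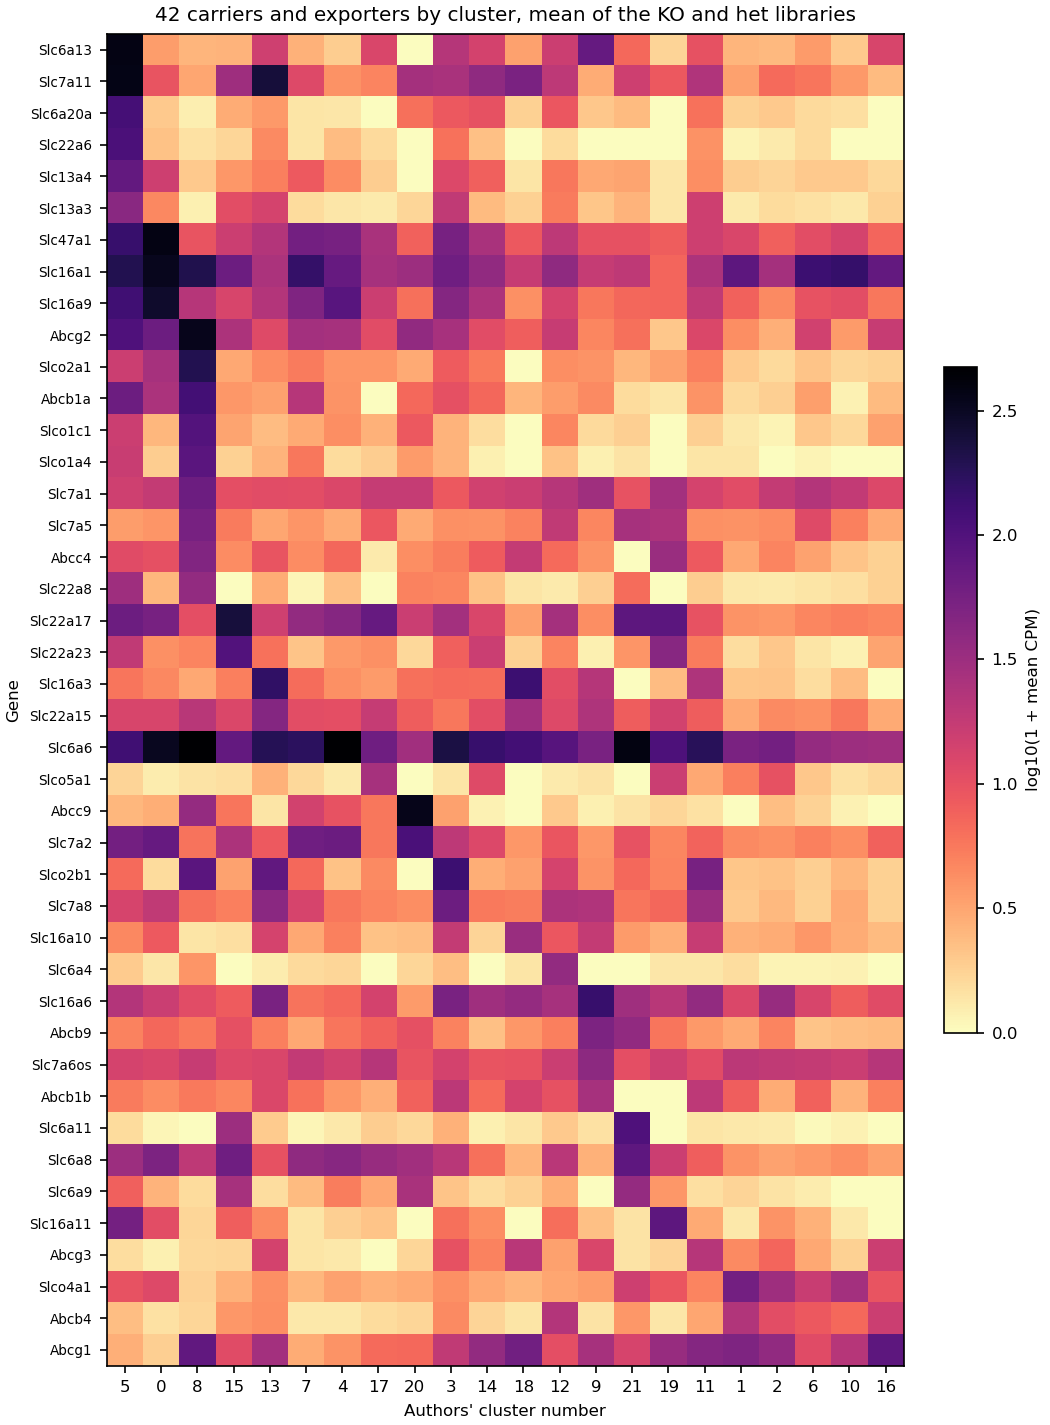
Level of 42 of the 55 carriers and exporters with a mean of at least 20 CPM in their highest cluster (rows; the members named in the text), by cluster (columns), as log10(1 + mean CPM of the KO and het libraries). Dark cells of the first rows gather in cluster 5, followed by those of clusters 0 and 8, while Slc6a6 and Slc16a1 are dark in many clusters.

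Some members were spread over the tissue and others were not. The highest cluster exceeded the next by at least 3-fold for 18 of the 79 members (22.8%, against 12.1% of all genes). Slc22a6 was 20.6 times, and Slc6a20a 13.2 times, as high in cluster 5 as in the next cluster. Slc6a6, the taurine transporter gene, lay at the other end, with at least 10 CPM in all 22 clusters and its highest mean level in osteolineage-like cluster 4 (435 CPM in KO and 511 in het), close to that in cluster 8 (410 and 525). Slc16a1, which encodes the lactate and ketone body transporter MCT1, reached at least 10 CPM in 21 of 22 clusters.

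In cluster 5, the transporters of transmitters and osmolytes were led by Slc6a13, with 346 CPM in KO and 400 in het cells. Its neighbour Slc6a12, which encodes the betaine and GABA transporter, stood at 11.96 CPM in KO and 10.6 in het. Slc6a20a, which encodes a carrier of proline and glycine, had 132 CPM in KO and 105 in het. A UMI of Slc6a13 was seen in 39.5% of KO and 46.1% of het cells, against 1.52% and 2.02% of B cell-like cells. These were taken for comparison and are not shown to lack it. Cells of cluster 5 had medians of 19135 (KO) and 17472 (het) UMIs, and B cell-like cells of 4968 and 4965. Thinned to 2000 UMIs per cell, a UMI was expected in 27.4% of KO and 35.3% of het cells of cluster 5. In B cell-like cells it was expected in 0.452% and 0.480%, so cluster 5 lay above them in both libraries. Thinning left out 1 KO and 0 het cells of cluster 5 with fewer UMIs, and 28 and 31 B cell-like cells.

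Carriers of organic ions and acids made up a second group in cluster 5. Slc22a6, which encodes the organic anion transporter OAT1, had 114 CPM in KO and 101 in het, and Slc22a8, which encodes OAT3, had 37.6 and 21.7. Slc22a2, which encodes the organic cation transporter OCT2, had 25.7 CPM in KO and 10.6 in het. Slc13a4, a sulfate transporter gene, had 90.4 CPM in KO and 59.8 in het, and Slc13a3, a dicarboxylate transporter gene, 45.4 and 36.1. Slc7a11, which encodes the cystine-glutamate exchanger xCT, was the highest member beside Slc6a13, with 362 and 374 CPM. It was not restricted to cluster 5: cluster 13 had 251.4 CPM in KO and 240 in het. The exporter genes Abcg2 (BCRP) and Abcb1a (P-glycoprotein) stood at 110 and 69.8 CPM in KO and at 96.0 and 57.1 in het. The monocarboxylate carrier genes Slc16a1, Slc16a9 and Slc16a11 had 211, 142 and 70.9 CPM in KO and 178, 109 and 43.1 in het, and Slc47a1, which encodes the cation extruder MATE1, had 151 and 139.

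These members did not share the same cells of cluster 5. A split at 3 UMIs of Ptgds, chosen after the levels were seen, put 146 KO cells (39.2%) and 106 het cells (35.9%) on the Ptgds-positive side, at medians of 18920.5 and 17397 UMIs. Of 57 members with at least 50 UMIs in the cluster, 15 (26.3%) were more than 2-fold higher in Ptgds-positive cells in both libraries, against 1.83% of 11062 genes, and 0 were more than 2-fold lower, against 1.54%. Slc6a13 stood at 776 CPM in Ptgds-positive and 70.9 in Ptgds-negative KO cells, and at 828 and 149 in het cells. Slc22a6 had 263 against 18.1 CPM in KO cells, and 241 against 17.96 in het cells. Slc22a8 had 89.2 against 4.62 CPM in KO cells and 50.6 against 4.77 in het cells. Among the others were the transmitter carriers Slc6a9, Slc6a12 and Slc6a20a, the acid carriers Slc13a3 and Slc13a4, and Slc22a2, Slc22a3, Slc22a4, Slc22a23, Slco1a4 and Slc16a12. The exporter gene Abcb1a ran the other way, with 45.8 CPM in Ptgds-positive and 85.2 in Ptgds-negative KO cells, and 27.2 and 74.7 in het cells. Abcg2 differed little, with 111 against 109 CPM in KO cells and 94.1 against 97.1 in het cells.

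**Figure D3:**
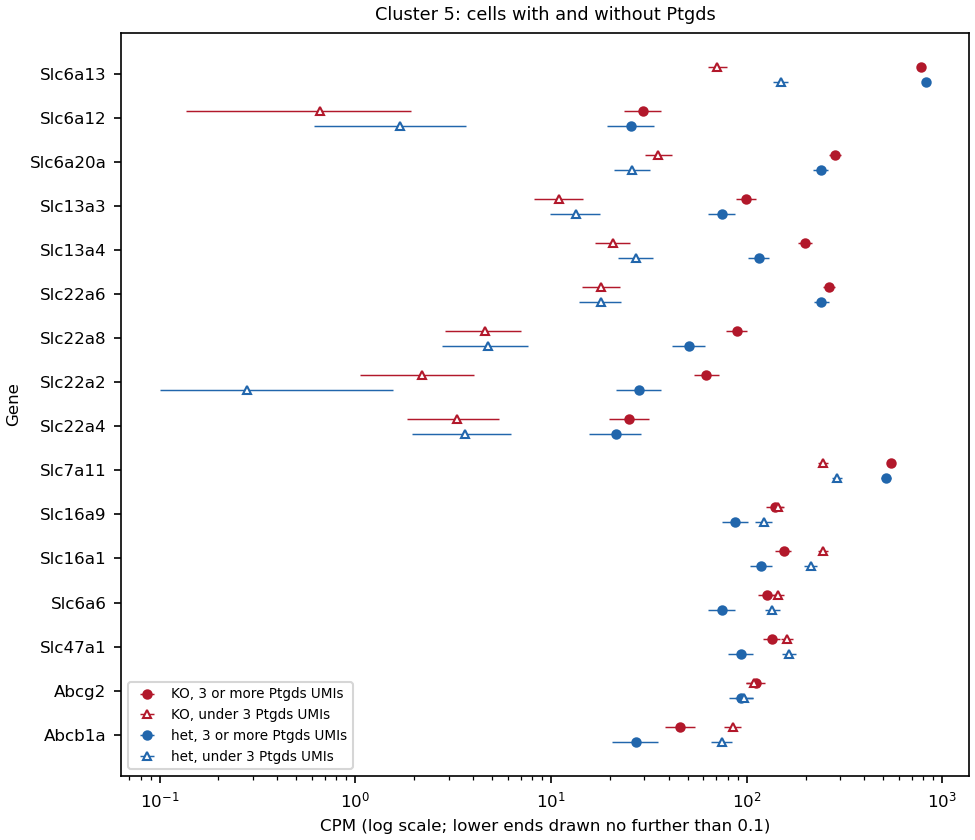
Level (CPM, log x axis) of 16 members in cluster 5 cells with at least 3 Ptgds UMIs (filled circles) and with fewer (open triangles), KO in red above het in blue, with exact 95% Poisson intervals. Slc6a13 to Slc22a4 stand further right in Ptgds-positive cells of both libraries, and Abcb1a stands further left.

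Cells of cluster 5 with a Cdh1 UMI (78 KO and 48 het cells, at medians of 20006 and 24122 UMIs) had a different set. Cells without a Cdh1 UMI had medians of 18802 UMIs in KO and 16996 in het, so the positive cells were deeper, more so in het. Of 57 members, 7 (12.3%) were more than 2-fold higher in Cdh1-positive cells in both libraries, against 1.64% of all genes, and 9 (15.8%) were more than 2-fold lower, against 3.32%. The higher ones were Abcg2, Abcb1a, Abcb1b, Slc47a1, Slc16a11, Slc22a15 and Slco4a1. Abcg2 stood at 180 CPM in Cdh1-positive and 88.9 in Cdh1-negative KO cells, and at 191 and 71.8 in het cells. Abcb1a had 121 against 55.0 CPM in KO cells and 97.0 against 46.9 in het cells. Slc47a1 had 283 against 112 CPM in KO cells and 254 against 109 in het cells. The lower ones included Slc6a13, Slc7a11, Slc6a20a, Slc22a2 and Slc22a4. Slc22a6 and Slc13a3 did not pass 2-fold in both libraries. They were also lower in Cdh1-positive cells, with ratio intervals below 1 in both. Slc6a13 had 109 CPM in Cdh1-positive and 415 in Cdh1-negative KO cells, and 100 and 477 in het cells. Ptgds itself did not follow this split in KO, with 14686 CPM in Cdh1-positive and 15045 in Cdh1-negative KO cells, and 13410 and 6364 in het cells.

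Between the libraries, 6 of 57 measured members in cluster 5 (10.5%) were more than 1.5-fold higher in KO, against 1.45% of 11063 genes, and 3 (5.26%) were more than 1.5-fold lower, against 3.16%. This balance depended on the cells and the averaging. Without cells that had a UMI of Ptprc, the gene of the leukocyte antigen CD45, 3 of 53 were higher and 5 lower, against 1.89% and 2.96% of 10791 genes. With the mean of each cell's CPM, 4 of 57 were higher and 4 lower, against 2.03% and 3.5%. The median log2 KO/het ratio was 0.09 over these members and -0.02 over all genes. Slc22a2 was 2.42 times as high in KO as in het (1.80 to 3.29), from 191 KO and 60 het UMIs in 9.41% and 6.44% of cells. Slc22a8 had a ratio of 1.73 (1.39 to 2.16), Slc16a11 of 1.64 (1.41 to 1.92) and Slc13a4 of 1.51 (1.33 to 1.73). The most UMIs from 1 cell were 29 in KO and 10 in het for Slc22a2, and 39 and 15 for Slc22a8. They were 26 and 12 for Slc16a11, and 46 and 25 for Slc13a4. Slc7a6 and Slc22a3 had ratios of 1.52 (0.902 to 2.63) and 1.71 (0.925 to 3.30), with intervals that include 1. Slco1c1 had 9.67 CPM in KO and 19.98 in het, a ratio of 0.484 (0.355 to 0.656). Its ratio was 0.329 in female and 0.915 in male cells. Slc16a12, a creatine carrier gene, had a ratio of 0.577 (0.405 to 0.817), and Abcb9, a lysosomal peptide transporter gene, one of 0.647 (0.355 to 1.17). The members highest in the cluster lay closer to 1, at 0.863 (0.816 to 0.914) for Slc6a13, 0.968 (0.914 to 1.03) for Slc7a11 and 1.13 (1.01 to 1.26) for Slc22a6. Others among the highest lay above 1, with Slc16a1 at 1.19 (1.09 to 1.28) and Slc16a9 at 1.30 (1.18 to 1.44). Slc6a6 stood at 1.22 (1.11 to 1.35), and Slc47a1 at 1.09 (0.992 to 1.19), with an interval that includes 1. The ratio of Slc6a20a, 1.26 (1.14 to 1.40) over all cells, was 0.907 in female and 1.82 in male cells.

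The make-up of cluster 5 moved with these ratios. Ptgds stood at 14964 CPM in KO and 7802 in het, and cells with at least 100 Ptgds UMIs made up 18.01% of KO and 10.8% of het cells. The 10 arachnoid barrier markers, of which 9 were seen in KO and 10 in het, summed to 16168 CPM in KO and 8932 in het, most of it Ptgds. The other 9 summed to 1204 and 1130 CPM, among them Krt18 at 0.672 and 8.31. Neutrophil markers, 7 of 7 seen in each library, summed to 220 and 102 CPM, and mast cell or basophil markers, of which 6 of 8 were seen in KO and 7 in het, to 52.4 and 228. The 6 choroid plexus markers summed to 55.7 CPM in KO and 41.4 in het, with Folr1 at 0 in het. The part of these cells in the ratios was not tested. Within Ptgds-positive cells alone, the KO/het ratio was 2.21 for Slc22a2, 1.76 for Slc22a8, 2.03 for Slc16a11 and 1.73 for Slc13a4. Within Ptgds-negative cells it was 1.42 for Slc16a11, 0.969 for Slc22a8 and 0.760 for Slc13a4. Among cells without a Cdh1 UMI, Slc22a2 had 29.7 CPM in KO and 12.9 in het.

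**Figure D4:**
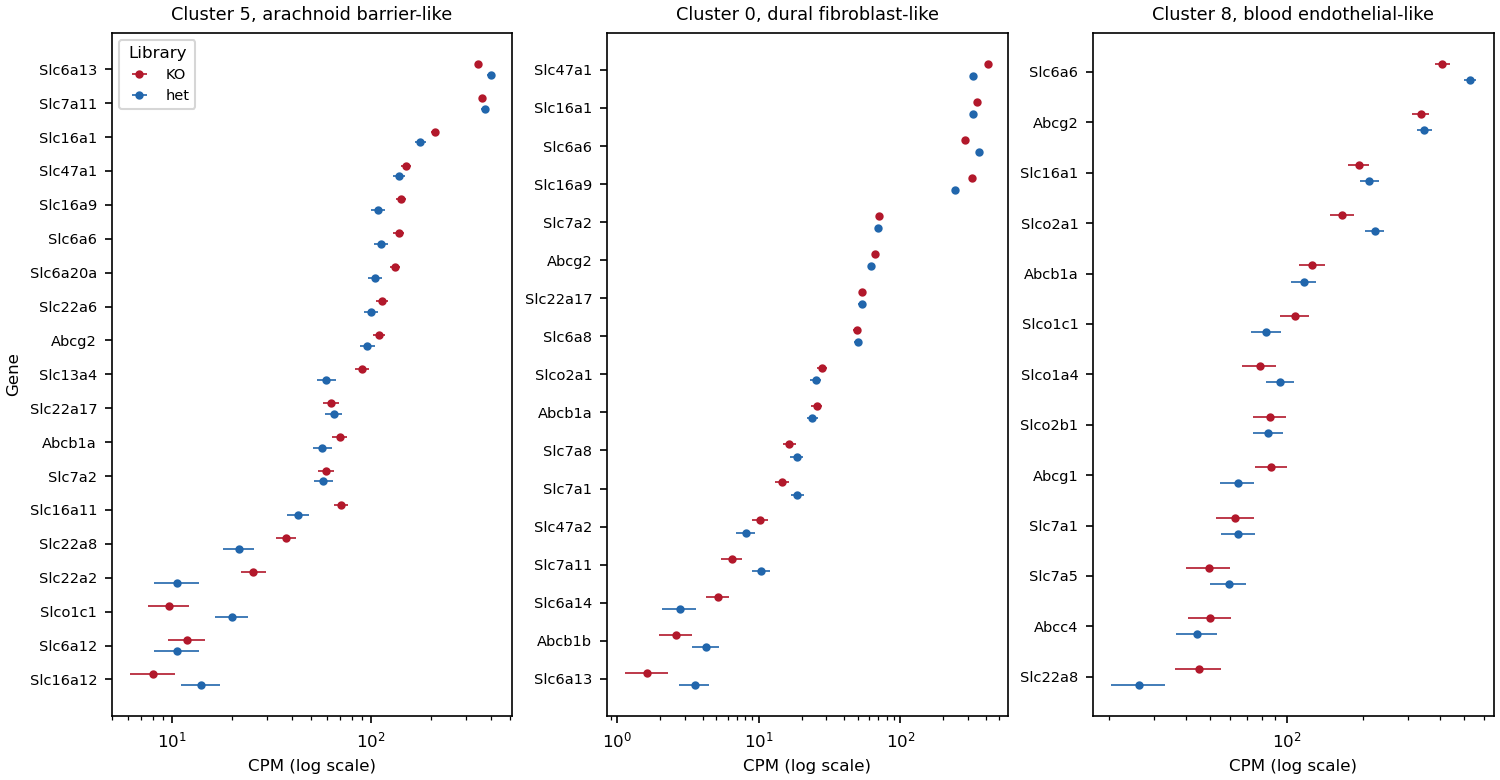
Level (CPM, log x axis) of members named in the text in clusters 5, 0 and 8 in the KO library (red, upper point of each pair) and the het library (blue, lower point), with exact 95% Poisson intervals. The widest gaps in cluster 5 are those of Slc22a2, with KO to the right, and Slco1c1, with KO to the left.

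In the dural fibroblast-like cluster 0, 4 members dominated. Slc47a1 had 418 CPM in KO and 327 in het, the highest level of this gene in any cluster. Slc16a1 had 348 and 325 CPM, Slc16a9, a carnitine carrier gene, 320 and 243, and Slc6a6 288 and 360. Thinned to 2000 UMIs, a UMI of Slc47a1 was expected in 49.9% of KO and 42.6% of het cells of cluster 0, against 2.12% and 1.19% of B cell-like cells. The next in level were the cationic amino acid carrier gene Slc7a2 (71.1 CPM in KO and 69.3 in het), Abcg2 (66.3 and 62.4), Slc22a17, which encodes a lipocalin receptor (53.9 and 53.6), and the creatine transporter gene Slc6a8 (49.5 and 50.5). Abcb1a stood at 25.6 and 23.8 CPM, and Slco2a1, the prostaglandin transporter gene, at 27.9 and 25.2. Slc47a2, which lies beside Slc47a1, had 10.2 and 8.08 CPM and was also highest here. Of the 15 members more than 2-fold higher in Ptgds-positive cells of cluster 5, 14 were under 5 CPM in both libraries of cluster 0, among them Slc22a6 with 1.30 CPM in KO and 1.07 in het. The other was Slc13a4, with 14.2 CPM in each library.

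Between the libraries, 1 of 56 measured members in cluster 0 (1.79%) was more than 1.5-fold higher in KO, against 1.28% of 12533 genes, and 3 (5.36%) were more than 1.5-fold lower, against 2.43%. The median log2 ratio was 0.02 over the members and 0.0050 over all genes. The abundant members differed by less than this: Slc47a1 had a ratio of 1.28 (1.24 to 1.32), Slc16a9 of 1.31 (1.27 to 1.36), Slc16a1 of 1.07 (1.04 to 1.11) and Slc6a6 of 0.7997 (0.773 to 0.828). Their intervals left out 1, but with no replicate library the spread between animals is unknown. Slc6a14, which encodes a broad amino acid transporter, had 5.12 CPM in KO and 2.76 in het, a ratio of 1.85 (1.33 to 2.62). The lower ones were Slc7a11 at 0.618 (0.495 to 0.772), Abcb1b at 0.614 (0.429 to 0.872) and Slc6a13 at 0.461 (0.298 to 0.703). Up to 22 KO and 37 het UMIs of Slc7a11, and 13 and 28 of Slc6a13, came from 1 cell. Without the tenth of cells with the most UMIs in each library, the ratio was 0.947 for Slc7a11 and 1.61 for Slc6a13.

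In the blood endothelial-like cluster 8, the exporter Abcg2 had 337 CPM in KO and 348 in het, 3.33 times the mean level of the next cluster. A UMI was expected in 44.9% of KO and 44.2% of het cells after thinning, against 0.740% and 0.933% of B cell-like cells. Abcb1a had 126 and 117 CPM, and Abcc4, which encodes the exporter MRP4, 49.7 and 44.4. Among organic anion transporting polypeptides, Slco2a1 had 166 CPM in KO and 222 in het, Slco1c1 108 and 82.9, Slco1a4 78.3 and 94.1, and Slco2b1 85.8 and 84.5. Of the amino acid carriers, Slc7a1 had 62.8 and 64.4 CPM, and Slc7a5, which encodes the large neutral amino acid transporter LAT1, 49.2 and 59.0.

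Part of the endothelial members differed between cells with and without Plvap. Cells with no Plvap UMI numbered 39 in KO and 42 in het (17.3% and 16.1% of the cluster), at medians of 7845 and 9232 UMIs, against 8410 and 8293 in Plvap-positive cells. Of 26 members with at least 50 UMIs, 9 (34.6%) were more than 2-fold lower in Plvap-positive than in Plvap-negative cells of both libraries, against 2.54% of 8377 genes. Slco1c1 was almost confined to cells without Plvap in both libraries, with 0.563 CPM in Plvap-positive and 641 in Plvap-negative KO cells, and 2.27 and 536 in het cells. Its UMIs came from only 14 KO and 19 het cells of cluster 8, with up to 75 KO and 58 het UMIs from 1 cell. Slc16a1 had 20.3 against 1044 CPM in KO cells and 19.1 against 1292 in het cells. Slc22a8 had 2.25 against 258 CPM in KO cells and 2.27 against 161 in het cells. A UMI of it was seen in 16 KO and 20 het cells of cluster 8. Slc7a5 had 9.57 against 246 CPM in KO cells and 18.6 against 286 in het cells. Slco1a4, Slc7a1, Slc16a4 and Abcb1a were also among the 9. Abcb1a had 77.7 CPM in Plvap-positive and 367 in Plvap-negative KO cells, and 80.9 and 319 in het cells. The same cells held Mfsd2a, a lipid transporter gene that marks blood-brain barrier vessels, at 1.69 against 246 CPM in KO cells and 5.00 against 158 in het cells. They also held Slc2a1, the glucose transporter gene, at 59.1 against 1044 CPM in KO cells and 111 against 1047 in het cells. Whether the cells without Plvap came from vessels of the dura was not tested.

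Fewer members were higher with Plvap. Of the 26 members, 2 (7.69%) were more than 2-fold higher in Plvap-positive cells of both libraries, against 3.76% of all genes: Slco2a1 and Abcc9, which encodes a subunit of potassium channels and was highest in pericyte or smooth muscle-like cluster 20. Slco2a1 had 184 CPM in Plvap-positive and 72.8 in Plvap-negative KO cells, and 243 and 105 in het cells. Abcg1, a cholesterol exporter gene, had 93.5 against 53.2 CPM in KO cells and 70.0 against 30.6 in het cells. With the split at 3 Plvap UMIs instead, 9 of the 26 were again more than 2-fold lower in Plvap-positive cells, against 2.59% of all genes, and 2, Abcc9 and Abcg1, were higher, against 2.71%. Abcg2 was present on both sides, with 321 against 414 CPM in KO cells and 315 against 539 in het cells.

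**Figure D5:**
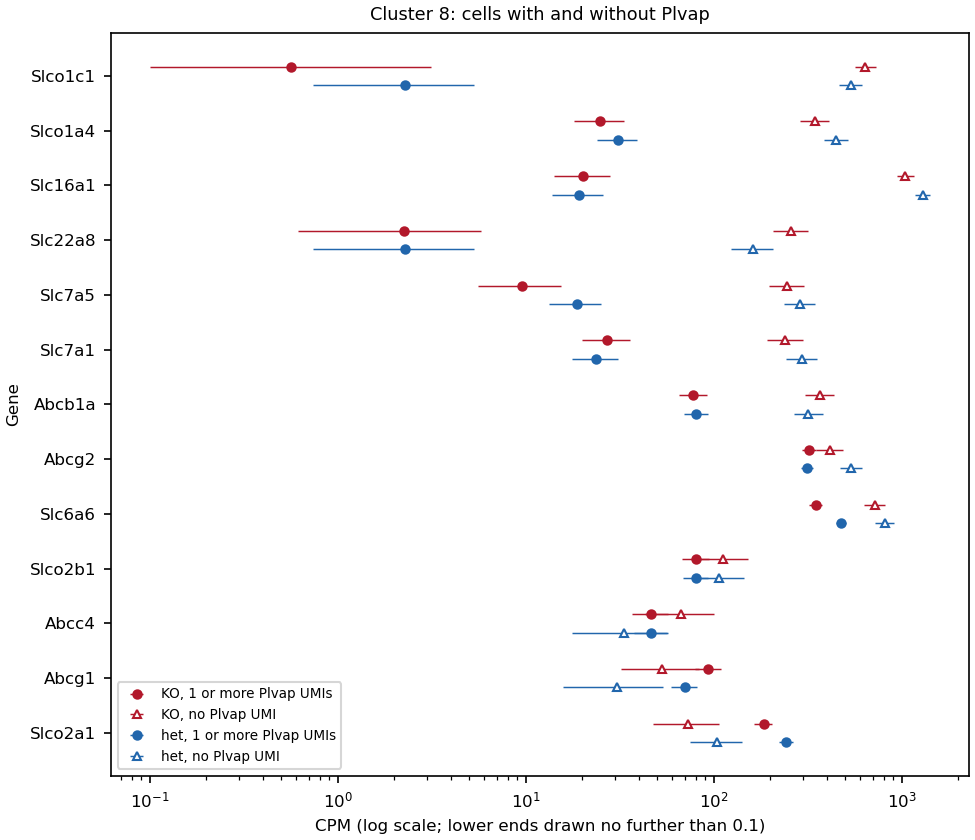
Level (CPM, log x axis) of 13 members in cluster 8 cells with at least 1 Plvap UMI (filled circles) and with none (open triangles), KO in red above het in blue, with exact 95% Poisson intervals. Slco1c1, Slco1a4, Slc16a1, Slc22a8, Slc7a5 and Slc7a1 stand well to the right in cells without Plvap, and Slco2a1 and Abcg1 stand further left.

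Between the libraries, 1 of 26 measured members in cluster 8 (3.85%) was more than 1.5-fold higher in KO, against 2.47% of 8378 genes, and 2 (7.69%) were more than 1.5-fold lower, against 3.9%. The median log2 ratio was -0.01 over the members and -0.01 over all genes. Slc22a8 had 45.0 CPM in KO and 26.2 in het, a ratio of 1.72 (1.24 to 2.38), with up to 30 of 96 KO UMIs from 1 cell. Without the tenth of cells with the most UMIs the ratio was 1.14. Abcb8, a mitochondrial ABC transporter gene, had a ratio of 0.663 (0.351 to 1.21). Slco2a1 had a ratio of 0.746 (0.652 to 0.853), which was 0.450 in female and 1.01 in male cells. Slc6a6 had 0.781 (0.716 to 0.851). Markers of other cells moved with the libraries in cluster 8. All 8 markers of mast cells or basophils were seen in KO and 6 in het, with summed levels of 937 CPM in KO and 122 in het. Of 6 lymphatic markers 5 were seen in each library, with 195 and 98.4 CPM summed (Ccl21a at 0 in both), and of 8 pericyte or smooth muscle markers 7 were seen in KO and 8 in het, with 95.2 and 196 CPM. Their part in the ratios was not tested. Within Plvap-positive cells the ratio of Slc6a6 was 0.735 and within Plvap-negative cells 0.883.

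Transcripts of some subunits that the carriers need were found in the same clusters. Slc3a2, which encodes the heavy chain that carries Slc7a5 and Slc7a11 to the membrane, stood at 294 CPM in KO and 331 in het cells of cluster 5 and at 358 and 313 in cluster 8. Slc3a1, the gene of the other heavy chain, had 0 KO and 1 het UMI in cluster 5 and likewise in cluster 8. Bsg, which encodes basigin, a chaperone of MCT1, was highest in cluster 8, with 2156 CPM in KO and 1846 in het. Over the 4 subunit genes, 0 of 3 measured in cluster 5, 0 of 3 in cluster 0 and 0 of 2 in cluster 8 were past 1.5-fold in either direction. Of 34 other barrier transporter genes, 25 were measured in cluster 5, where Slc46a1 (folate; ratio 2.38, 1.47 to 3.99) and Aqp1 (water; 1.59, 1.09 to 2.34) were more than 1.5-fold higher in KO. The nucleoside carrier gene Slc29a1 (0.661), the iron exporter gene Slc40a1 (0.4998) and Abca8a (0.613) were more than 1.5-fold lower. These 2 higher and 3 lower stand against 1.45% and 3.16% of all genes. In cluster 0, 9 of the 34 (with no UMI minimum; 3.2% of all genes with at least 100 UMIs) had their highest level, among them the bicarbonate transporter gene Slc4a10 (389 CPM in KO and 366 in het) and the ascorbate transporter gene Slc23a2 (283 and 255). There 0 of 25 measured were past 1.5-fold higher, against 1.28% of all genes, and 1 was lower, against 2.43%: Slc15a2, a peptide carrier gene, at 0.323 (0.189 to 0.533). In cluster 8, 3 of 16 measured were higher, against 2.47%, and 0 lower, against 3.9%. The higher ones were Slc4a10 at 2.04 (1.17 to 3.64), Slc26a2 at 1.62 (1.16 to 2.26) and Mfsd2a at 1.51 (1.10 to 2.09). Slc4a10 and Slc26a2 were highest in cluster 0.

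Also examined were 24 genes of transcription factors and nuclear receptors that are known to bear on transporter genes or on the meninges. Foxc1 and Foxc2, forkhead factors of meningeal development, had their highest mean level of both libraries in cluster 5. Foxc1 had 256 CPM in KO and 225 in het cells there. In cluster 0 it had 238 and 236, so in het it was higher in cluster 0. Sox17, an endothelial factor, was highest in cluster 8, with 204 and 161 CPM. Nfe2l2, which encodes NRF2, an activator of Slc7a11, stood at 201 and 177 CPM in cluster 5. Nr1i2, the xenobiotic receptor gene PXR, had 0 UMIs in clusters 5 and 8 of both libraries, and Nr1i3 (CAR) had 0 in cluster 5. In cluster 5, 0 of 17 measured factors were past 1.5-fold higher in KO, against 1.45% of all genes. The 2 lower, against 3.16%, were Ahr (0.434, 0.251 to 0.734) and Lef1 (0.548, 0.389 to 0.768). In cluster 0 none of the 16 measured were past 1.5-fold, against 1.28% of all genes higher and 2.43% lower. In cluster 8, 2 of 14 were higher, against 2.47% of all genes, and 0 lower, against 3.9%. The higher ones were Pparg (1.64, 1.05 to 2.58) and Foxc2 (1.58, 0.926 to 2.71), whose interval includes 1. Ttr, which stood on the same list but is no factor, also passed 1.5-fold there. It encodes the thyroxine carrier transthyretin of the choroid plexus, was highest in cluster 12, and stood at 22.5 CPM in KO and 3.09 in het cells of cluster 8. Cluster 12 is mixed: 8 of 8 mast cell or basophil markers were 2-fold above all other cells. So were 4 of 6 choroid plexus markers, Ttr among them.

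Other members marked cells outside these clusters. Some of those clusters carried markers of cells not typical of dura. In cluster 19, 5 of 5 olfactory neuron markers were 2-fold above all other cells, and in cluster 17, 7 of 7 neuron markers were. In cluster 15, 6 of 6 oligodendrocyte and 7 of 7 Schwann cell markers were. Whether these cells came from other tissue was not tested. Abcc9 reached 318 CPM in KO and 387 in het cells of pericyte or smooth muscle-like cluster 20. Slc22a17 had 189 and 291 CPM in cluster 15, which is led by myelin genes. Slc6a11, a glial GABA transporter gene, had 115 and 90.6 CPM in cluster 21. Slc16a11 had its highest mean level of both libraries in cluster 19, with 56.1 CPM in KO and 107 in het, from 41 KO and 84 het cells. In KO alone it was higher in cluster 5, at 70.9 CPM. Slc6a4, the serotonin transporter gene, was 12.4 times as high in mixed cluster 12 (26.1 and 45.2 CPM) as in the next cluster. Which cells of cluster 12 carry it was not examined. Slco2b1 had 129 and 134 CPM in macrophage-like cluster 3, and Slc16a3, which encodes the lactate exporter MCT4, 157 and 160 in cluster 13. Slc16a10, an aromatic amino acid carrier gene, had 31.5 and 32.5 CPM in monocyte-like cluster 18. Slco4a1 had 58.1 and 59.3 CPM in B cell-like cluster 1, Abcg1 90.8 and 74.3 in B cell-like cluster 16, Slco5a1 28.9 and 24.3 in cluster 17 and Abcg3 20.1 and 20.7 in cluster 11.

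Lymphoid cluster 9, for which the authors gave cell names, held members of its own. Slc16a6, which encodes a ketone body carrier, had 283 CPM in KO (250.8 to 319) and 388 in het gdTcells (342 to 437). It had 16.1 and 37.2 CPM in ILC2s, 64.9 and 54.4 in NK cells and 8.07 and 43.2 in Tcells. Slc6a13, the GABA carrier of cluster 5, was also seen here, with 101 CPM in KO and 95.8 in het gdTcells, 84.0 and 70.5 in ILC2s and 40.6 and 81.6 in NK cells. It had 0 UMIs in 32 KO and 30 het Tcells, which allows up to 12.1 CPM in KO and 10.8 in het. Slc7a8, a neutral amino acid carrier gene, had 90.4 CPM in KO and 59.8 in het ILC2s. In the other 3 named types its observed level was at most 4.18 CPM in either library. Those levels rest on 0 to 2 UMIs each, and the interval reaches 22.5 CPM in KO Tcells.

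Several members lie side by side in the genome without sharing their highest cluster. With another member within 150000 bases, 32 members form 14 groups on GRCm38, by GENCODE positions, whose gene starts can differ from those of RefSeq. Slc22a8 (chromosome 19, 8591254 to 8611835, plus strand) ends 6203 bases before Slc22a6 (8618039 to 8628299, plus strand). They shared Ptgds-positive cells of cluster 5, whereas cluster 8 held Slc22a8 at 45.0 CPM in KO and 26.2 in het and Slc22a6 at 0.938 and 0, from 2 and 0 UMIs. Slc6a13 and Slc6a12 (chromosome 6, 5342 bases apart) were both highest in cluster 5, and so were Slc6a20a and Slc6a20b (chromosome 9, 2204 bases apart). Slc47a1 and Slc47a2 (chromosome 11, 540 bases apart) were both highest in cluster 0. On chromosome 5, Abcb1a was highest in cluster 8, Abcb1b in cluster 9 and Abcb4 in cluster 1. The last 500 transcript bases of Abcb1b share stretches of 60 bases with those of Abcb4, and those of Slc22a21 with those of Slc22a5, so reads of these pairs may be split between the genes. Slc7a6os, which bears the Slc7a6 prefix but is the gene on the opposite strand beside it and no carrier, had 37.6 CPM in KO and 41.0 in het cells of cluster 9.

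The remaining members were rare. Of the 104, 10 had 0 to 19 UMIs over all annotated cells, 15 had 20 to 99, 32 had 100 or more but under 1000, and 47 had 1000 or more. In cluster 5, 37 members had 1 to 49 UMIs and 10 had none. In cluster 0 these numbers were 43 and 5, and in cluster 8 they were 48 and 30. A further 20 genes with these symbol starts are in the matrices but not in the authors' table of annotated cells, with at most 3 UMIs each. Depth limits what can be seen of all of these, and a count of 0 is not shown to be absence.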

How the data were processed

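Droplet single-cell libraries of dural meninges (1 KO and 1 het) were used. The authors deposited UMI counts per gene and barcode, per the file headers. Cell Ranger 3.0.2 and the build mm10 are named in the submitters' processing notes. The sources used here do not give the library chemistry, gene annotation, cell filters or treatment of doublets, and no doublet caller was run. Clusters, cell names of cluster 9 and sex labels are the authors' deposited metadata.

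Counts of annotated cells were taken from the matrices, and 10 values of members differ in the authors' table. They were summed per cluster and library and scaled to CPM, with no length scaling. Ratios need 50 UMIs over both libraries, and the highest cluster needs 100. Intervals are exact (95%): Poisson for CPM and conditional binomial for ratios, and cover counting error only. A count of 0 allows up to 3 UMIs. Shares of cells were given as observed and as computed, without random draws, for cells thinned to 2000 UMIs. Clusters were called X-like from marker lists (3 or more markers 2-fold above all other cells, pseudocount 5 CPM). The ratio step was tested on simulated Poisson counts, the model that the intervals assume. This simulation had no clumping of UMIs in single cells and cannot show how the intervals behave with it. Python 3.11.15, numpy 2.4.6, scipy 1.17.1, pandas 2.3.3 and matplotlib 3.10.9 were used.

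Named members were, in clusters 5, 0 and 8, the 15 highest, up to 10 per direction past 1.5-fold whose interval leaves out 1, and those at least 3 times the next cluster. Elsewhere it was the highest member of each cluster. Some members that meet this rule are not reported here, though all counts include them. Other members that are named were chosen after their values were seen, as was the Ptgds split. The members, gene lists and markers were chosen with earlier results of these data known. Alternatives covered UMI minimums, scaling, mean per cell CPM, the authors' table, leaving out cells, sex and a 2-fold threshold. No column of other samples was present.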

Additional observations from a re-analysis of the deposited data

Results flagged for a closer look

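Slc16a11 had KO/het ratios on opposite sides of 1 in a pair of stromal clusters, 1.64 in cluster 5 and 0.774 (0.631 to 0.947) in cluster 0. Slco1c1 likewise had 1.30 (1.07 to 1.57) in cluster 8 and 0.484 in cluster 5. Slc6a6 had 1.22 (1.11 to 1.35) in cluster 5, against 0.7997 (0.773 to 0.828) in cluster 0 and 0.781 (0.716 to 0.851) in cluster 8. With 1 library per genotype, the differences between clusters were not tested. The ratio of Slco1c1 in cluster 8 was 0.820 without the tenth of cells with the most UMIs.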

How the results depend on the processing

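The 57 ratios of named members in clusters 5, 0 and 8 had 513 alternative values, of which 466 lay inside the counting interval. In all, 26 lay on the other side of 1, and 8 of these belonged to 7 ratios whose interval leaves out 1. Of those 7, only Slc6a13 in cluster 0 was past 1.5-fold, at 0.461, and it stood at 1.61 without the tenth of cells with the most UMIs. Slco1c1 in cluster 8, at 1.30, stood at 0.820 without those cells and 0.934 in female cells. In female cells, Slc6a20a (1.26) and Slc22a6 (1.13) in cluster 5 stood at 0.907 and 0.928, and Slc6a6 in cluster 8 (0.781) at 1.06. In male cells, Slc16a1 in cluster 0 (1.07) stood at 0.953 and Slco2a1 in cluster 8 (0.746) at 1.01. The number of members past 1.5-fold was 9 in cluster 5 (6 higher and 3 lower), 31 with no UMI minimum and 2 at 2-fold. It was 8 both without cells with a Ptprc UMI (3 higher, 5 lower) and with the mean of each cell's CPM (4 and 4), and 4 were higher without the top cell of each library or the tenth of cells with the most UMIs. In cluster 0 it was 4, but 8 at a minimum of 20 UMIs, 27 with none, 1 at 2-fold and 2 without the tenth of cells with the most UMIs. In cluster 8 it was 3, but 7 at a minimum of 20 UMIs, 1 at 100, 36 with none, 1 at 2-fold, 1 without the top cell of each library and 1 without the tenth of cells with the most UMIs. The fewer or more genes measured at another minimum account in part for these. Members highest in cluster 5 numbered 14, and 9 at a minimum of 500 UMIs. Splits gave 16 members past 2-fold by Cdh1 and 15 by Ptgds in cluster 5, and 11 by Plvap in cluster 8 at either 1 or 3 UMIs. No paired analysis was possible because each genotype has 1 library, and no library could be left out. Depth limits members with few UMIs most, and intervals do not cover differences between animals or preparations.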
